A study of Mus musculus with 2 samples.

Results

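Complement C1q and the scavenger receptors of Kupffer cells, the resident macrophages of the liver, were described in livers of mice fed a western diet, with and without hepatic Lpcat3. The group was defined by name and holds 10 genes, C1qa, C1qb, C1qc, Marco, Msr1, Cd163, Cd5l, Timd4, Vsig4 and Cd68, among 18193 genes with a probe set. The platform annotation gave these genes 16 of the 45101 probe sets on the array. The L-Lpcat3 KO group (Lpcat3fl/fl Albumin-Cre) carried homozygous floxed Lpcat3 alleles and a Cre transgene driven by albumin, a hepatocyte gene, whereas the control group carried the same floxed alleles without Cre. Male mice of both groups ate a western diet for 9 weeks from 7 weeks of age, were 16 weeks old at harvest and had been fasted for 6 hr. RNA of 5 livers was pooled per genotype and each pool was hybridised to 1 Affymetrix Mouse Genome 430 2.0 array, so there is no replicate, no difference below was tested, and the number of arrays limits the precision.

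Kupffer cells line the liver sinusoids and clear bacteria, dead cells, aged red blood cells and modified lipoproteins from the blood. C1q, the recognition part of the first complement component, is built from the products of C1qa, C1qb and C1qc and, unlike most plasma complement proteins, is made mainly by macrophages rather than by hepatocytes. Marco and Msr1 are class A scavenger receptors, Cd163 takes up haemoglobin bound to haptoglobin, Cd5l is a secreted scavenger receptor protein of tissue macrophages, Timd4 binds phosphatidylserine on dying cells, Vsig4 is a complement receptor for C3 fragments, and Cd68 is a glycoprotein of macrophage lysosomes.

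The promoters of C1qb and C1qc, which are adjacent genes, and those of Marco and Cd163, scavenger receptor genes whose ratios lay on opposite sides of 0, are shown here as the 250 bases before the start site (RefSeq, GRCm38.p6), 5′ to 3′ on the strand of the gene. Capitals mark matches on either strand to GAGGAA, the core bound by PU.1 and SpiC, or to TGCTGA, part of the site bound by Maf factors; another motif, the AP-1 site TGACTCA, had no match in these 4 windows.
C1qb (chr4:136886201-136886450, minus strand): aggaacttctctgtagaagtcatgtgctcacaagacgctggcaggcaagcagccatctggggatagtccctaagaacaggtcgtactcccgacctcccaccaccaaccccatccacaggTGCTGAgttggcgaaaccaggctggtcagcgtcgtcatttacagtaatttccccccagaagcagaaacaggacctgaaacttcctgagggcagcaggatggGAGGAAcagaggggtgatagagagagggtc
C1qc (chr4:136892915-136893164, minus strand): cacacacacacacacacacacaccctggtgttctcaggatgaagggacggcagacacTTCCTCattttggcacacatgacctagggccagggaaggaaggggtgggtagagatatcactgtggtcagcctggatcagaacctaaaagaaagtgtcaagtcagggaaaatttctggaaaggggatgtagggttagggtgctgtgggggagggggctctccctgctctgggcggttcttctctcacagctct
Marco (chr1:120505025-120505274, minus strand): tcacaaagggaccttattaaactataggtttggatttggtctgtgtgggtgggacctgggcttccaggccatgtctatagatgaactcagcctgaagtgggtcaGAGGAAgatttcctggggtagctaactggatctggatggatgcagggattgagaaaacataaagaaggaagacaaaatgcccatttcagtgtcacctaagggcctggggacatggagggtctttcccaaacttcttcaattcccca
Cd163 (chr6:124304401-124304650, plus strand): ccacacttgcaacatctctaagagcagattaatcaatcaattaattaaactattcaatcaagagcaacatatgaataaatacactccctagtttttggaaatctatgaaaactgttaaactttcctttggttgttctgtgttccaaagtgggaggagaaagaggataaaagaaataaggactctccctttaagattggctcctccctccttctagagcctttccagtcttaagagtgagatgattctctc
GAGGAA was found in the windows of C1qb, C1qc, Marco, Cd5l, Vsig4 and Cd68, which is 6 of the 8 members with a sequence, and in 23.1% of 27025 promoters of all genes. TGCTGA was found for C1qb, Cd5l and Timd4, 3 of 8 against 15.8% of all promoters, and TGACTCA for Cd68 alone, 1 of 8 against 4.43%. The Cd163 window matched none of the 3 motifs, and C1qa and Msr1 had no sequence here. The windows of C1qc, Cd163 and Timd4 reach a short way into the gene as the RefSeq gene table bounds it. None of the matches overlapped another, and a match describes the sequence and does not show binding.

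On the western diet, livers lacking hepatic Lpcat3 had at least 2 times the control signal for 7 of the 10 genes, and none was lower by 2-fold. The 7 were the 3 C1q chains, Marco, Msr1, Cd68 and Cd5l. Vsig4 and Timd4 were higher by less than 2-fold, and Cd163 was the only member with a lower signal. The median log2 ratio (L-Lpcat3 KO to control) was 1.34 over the 10 genes and 0.01 over all 12290 measured genes, of which 2.70% were higher by 2-fold or more and 0.700% lower by as much. Signals are linear intensities, and values below the median of both arrays, 86.6, were set to it before ratios were taken; on this scale a gene counted as measured when 1 array or both reached that floor. All 10 genes lay above the floor on both arrays, a class in which 2.45% of 10973 genes were at least 2-fold higher. Of the 15 member probe sets that reached the floor on 1 array or both, 9 were at least 2-fold higher, a share to be read beside 2.36% of all 20847 measured probe sets with 1 gene symbol. At 3-fold, 1 of the 10 genes passed, C1qb, beside 0.448% of all measured genes. The C1q genes and Marco had been shown by the study in a panel of these arrays and Cd68 was measured by its PCR, so their direction is not independent evidence; of the 5 other members, 2 were at least 2-fold higher and the median was 0.82. In bulk liver RNA, more cells of a type and more RNA per cell cannot be told apart.

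**Figure D1:**
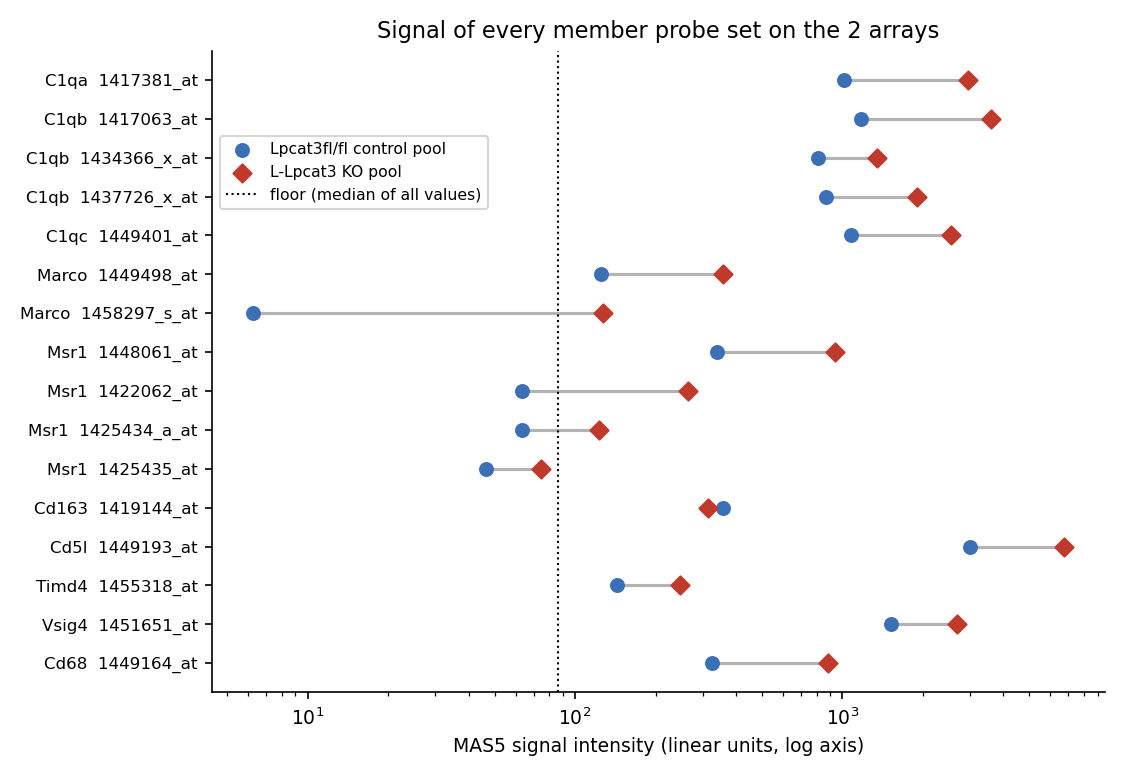
Signal of each of the 16 member probe sets (linear MAS5 intensity, log axis), with circles for the control pool, diamonds for the L-Lpcat3 KO pool and a dotted line at the floor of 86.6; each symbol is 1 array and there are no error bars. In 15 of the 16 probe sets the L-Lpcat3 KO signal is the higher one, and Cd163 is the exception.

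The 3 subunit genes of C1q were higher together. C1qb, the B chain, had 1170 units of signal in the control pool and 3597 in the L-Lpcat3 KO pool on its main probe set, a 3.07-fold difference that placed it 50th among the 12290 measured genes. C1qa, the A chain, went from 1011 to 2941 (2.91-fold). C1qc, the C chain, went from 1074 to 2542 (2.37-fold). The log2 ratios of the 3 chains thus lay between 1.24 and 1.62, a spread of 0.38, beside an SD of 0.29 among probe sets of one gene, pooled over 4476 genes; that SD leaves out the spread between mice. The 2 other probe sets of C1qb, whose probes may not be specific to 1 transcript, were less far apart between the genotypes. They read 869 and 1903 (log2 ratio 1.13) and 809.7 and 1341 (log2 ratio 0.73), so the 3 probe sets of this gene covered a wider range than the 3 chains did.

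The C1q genes lie side by side on chromosome 4, and the nearest genes with a probe set were read beside them. On the C1qb side, Lactbl1 read 90.0 in the control pool and 28.9 in the L-Lpcat3 KO pool. With the L-Lpcat3 KO side under the floor, its log2 ratio of -0.06 is a bound, and the ratio is that or lower. Tex46 was below the floor on both arrays, and Kdm1a, a histone demethylase gene, was at 0.31. On the C1qa side, Epha8 was below the floor on both arrays, Zbtb40 was at -0.05 and the Wnt ligand gene Wnt4 was at 0.52. Kdm1a, Zbtb40 and Wnt4, above the floor on both arrays, did not reach 2-fold, whereas all 3 C1q genes did. For Lactbl1 the floor left no room for a 2-fold fall. Of all measured genes, 2.70% were at least 2-fold higher and 0.700% lower by as much, so neighbours under 2-fold are the usual case.

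**Figure D2:**
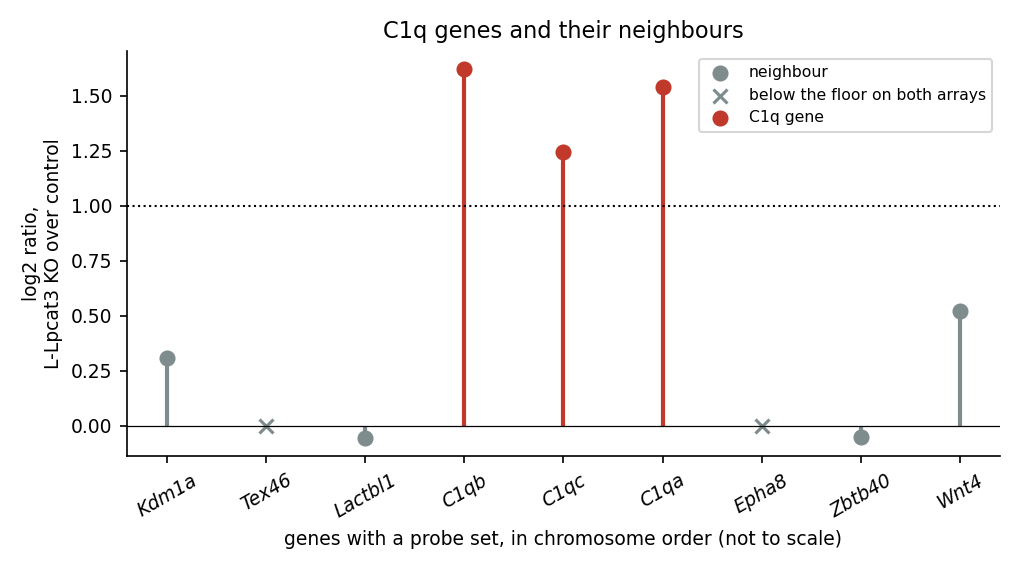
Log2 ratio, L-Lpcat3 KO to control (y axis) for the C1q genes (red) and for 3 genes with a probe set on each side (grey), in chromosome order on the x axis, not to scale; each point is 1 probe set and crosses mark genes below the floor on both arrays. The C1q genes stand at 1.24 to 1.62, above the dotted line at 2-fold. The measured neighbours are plotted between -0.06 and 0.52, and the point of Lactbl1 is a bound because its L-Lpcat3 KO side is under the floor.

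Both class A scavenger receptor genes were higher in L-Lpcat3 KO liver. Msr1, a receptor for modified lipoproteins, read 339 in the control pool and 935 in the L-Lpcat3 KO pool on its probe set of highest signal (2.76-fold). Its 3 other probe sets were dimmer: one read 63.4 and 264, at least 3.05-fold with the control side under the floor, the next 63.2 and 123, at least 1.42-fold, and the last 46.5 and 74.3, below the floor on both arrays. All 4 Msr1 probe sets were thus higher in the L-Lpcat3 KO pool as deposited, but only 1 had both signals above the floor. Marco, which binds bacteria and particles, read 125 and 357 (2.86-fold). Its other probe set gave 6.24 and 127, with the control side under the floor, which is at least 1.47-fold. Both Marco probe sets were higher in the L-Lpcat3 KO pool, with control signals near or under the floor.

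Cd163 and Cd5l, which both encode scavenger receptor proteins with cysteine-rich domains, did not move alike. Cd5l, whose product is secreted by macrophages and circulates bound to IgM, was at 2999.6 in the control pool and 6752 in the L-Lpcat3 KO pool (2.25-fold). Cd163, the haemoglobin receptor, read 357 and 313, a log2 ratio of -0.19, which is smaller than the SD of 0.29 among probe sets of one gene. Each of these genes had 1 probe set. The genes that handle haem iron after uptake also differed from each other: Hmox1, which encodes the haem-degrading enzyme, was at a log2 ratio of 1.02 and the iron exporter gene Slc40a1 at -0.19.

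Timd4, Vsig4 and Cd68 were each read by 1 probe set. Cd68 went from 326 to 883, a 2.71-fold difference. Vsig4, which marks resident Kupffer cells, read 1523 and 2683 (1.76-fold), and Timd4, a marker of long-lived Kupffer cells, read 144 and 248 (1.72-fold). Both ratios exceeded the SD among probe sets of one gene, and with the other 7 they made 9 of 10 members at least 1.5-fold higher, beside 9.07% of all measured genes. For lysosomal membrane genes other than Cd68 the ratios were closer to 0, with Lamp1 at 0.21 and Lamp2 at -0.18 on the log2 scale.

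In order of log2 ratio the members ran C1qb (1.62), C1qa (1.54), Marco (1.52), Msr1 (1.46), Cd68 (1.44), C1qc (1.24), Cd5l (1.17), Vsig4 (0.82), Timd4 (0.78) and Cd163 (-0.19). Neighbours in this order lay closer together than the SD of 0.29 among probe sets of one gene, except between Cd5l and Vsig4 and between Timd4 and Cd163. The first 7 ranked between 50th and 206th of 12290 genes, Vsig4 was 578th, Timd4 628th and Cd163 9340th.

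**Figure D3:**
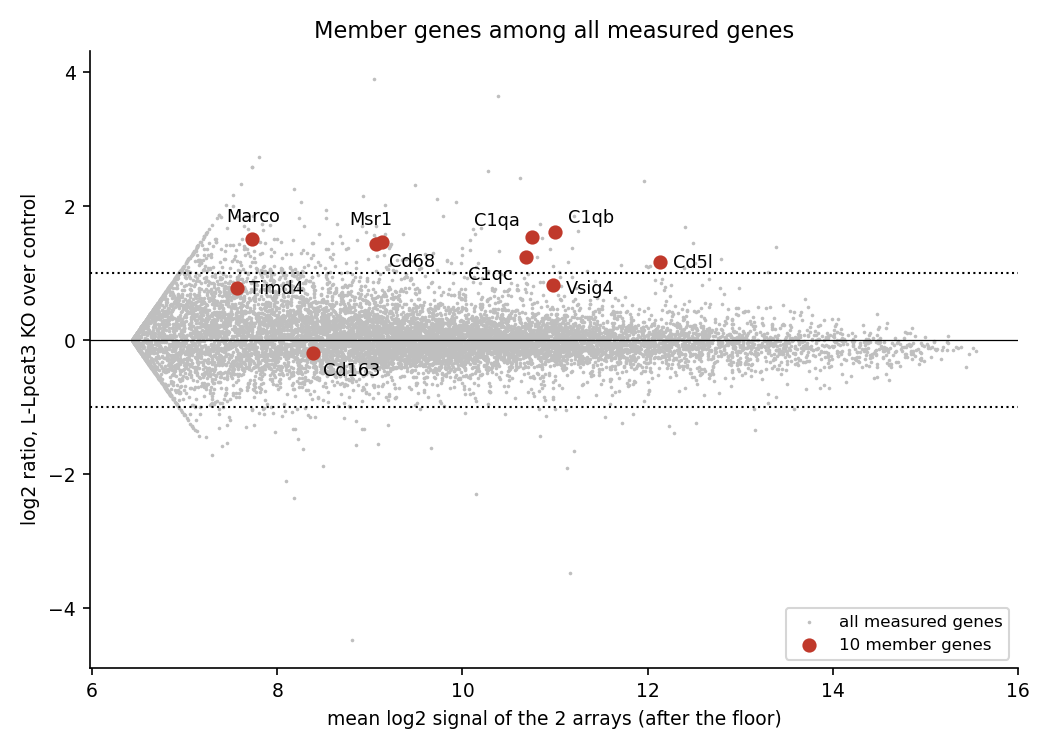
Each grey point is 1 of 12290 measured genes, plotted by mean log2 signal of both arrays (x axis) and by log2 ratio of the L-Lpcat3 KO pool to the control pool (y axis); red points are the 10 members and dotted lines mark 2-fold. Timd4 and Marco lie toward the left and Cd5l toward the right, and 7 members lie above the upper line.

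The proteases of the classical and lectin pathways of complement and C5, most of them hepatocyte products, lay on the other side of 0. All 6 measured genes of this list had a lower signal in L-Lpcat3 KO liver and none reached 2-fold. Of all measured genes 51.2% had a log2 ratio above 0, 2.70% were at least 2-fold higher and 0.700% lower by as much. C1ra, a protease that forms C1 with C1q, read 5167 in the control pool and 3874 in the L-Lpcat3 KO pool (log2 ratio -0.42), and C1s1, which it activates, was at -0.17. C2 was at -0.51, Hc, which encodes C5, at -0.41, and the lectin pathway proteases Masp1 and Masp2 were at -0.56 and -0.18, although the 4 measured probe sets of Masp1 ran from -0.56 to 0.23. The median of the 6 was -0.41, beside 0.01 for all genes and -0.12 for 13 hepatocyte markers, of which 3 were above 0 and none differed by 2-fold. C3, C4a, C4b, C1rb and C1s2 were not analysed here. Among 9 measured complement regulators 1 was at least 2-fold higher, Cd55, which protects host cells from C3 convertases (from 158 to 341, log2 ratio 1.11, with 0.53 as the lowest of its 3 probe sets and 0.91 with a pseudocount of 50). The regulators made by hepatocytes, such as Serping1, the C1 inhibitor (-0.21), Cfi (-0.25) and Vtn (-0.25), had ratios below 0, as did Clu, which encodes clusterin (-0.17). These 4 ratios were smaller than the SD of 0.29 among probe sets of one gene.

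Receptors for complement fragments and for C1q fell into a leukocyte group with higher signals and a broadly expressed group near 0. Of 8 measured genes 4 were at least 2-fold higher, beside 2.70% of all measured genes. The median was 1.03, beside 0.01 for all genes. Among these 4, C3ar1 and Lair1 had control signals near the floor (105 and 92.2). Itgb2, the common chain of the complement receptor integrins, read 284 and 869 (log2 ratio 1.61), and its partner Itgax 72.5 and 261 (at least 1.59). C3ar1, the receptor for C3a, was at 1.36, and Lair1, an inhibitory receptor that binds C1q, at 1.17, although its other probe set was at 0.14 and a pseudocount gave 0.86. Cd93 was at 0.89. Calr (-0.12), Lrp1 (-0.28) and C1qbp (-0.04), which are expressed in most cells of the liver, were near 0, and C5ar1 and Itgam were below the floor on both arrays.

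Other scavenger receptors were higher in part. Of 14 measured genes 2 were at least 2-fold higher, beside 2.70% of all measured genes. These were the fatty acid translocase gene Cd36 (1.09) and Cd207, which encodes langerin, at the threshold with 164 and 329. Cd36 is a gene of the study's panels, and its 3 probe sets ran from 0.76 to 1.09 and averaged 0.90, under 2-fold. Cd207 was under 2-fold with median centring (0.99), quantile normalization, loess or a pseudocount. The mannose receptor gene Mrc1 was at 0.66, Cxcl16 at 0.65 and Scarf1 at 0.73, whereas Scara5 (-0.64), Colec12 (-0.35), Scarb1 (-0.28) and the endothelial receptor gene Stab2 (-0.04) were not higher. The median of the 14 was 0.46. Of 17 measured genes for uptake of dying cells, the task in which Timd4 serves, 1 was at least 2-fold higher, Cd300lb (from 94.1 to 215, log2 ratio 1.19, or 0.88 with a pseudocount of 50). Cd300lf was at 0.94, the receptor kinase gene Axl at 0.87, Cd300a at 0.83 and the bridging protein gene Gas6 at 0.64, while the Kupffer cell kinase gene Mertk was at 0.29 and Timd2, a relative of Timd4, at -0.07. The count of 1 in 17 at 2-fold is to be read beside 2.70% of all measured genes. The median of this list was 0.29 and 15 of 17 genes were above 0, beside 51.2% of all measured genes. Of the 17, 4 had the control side under the floor, where the ratio can only come out at 0 or above.

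Among 18 measured Kupffer cell identity genes, 15 were above 0, beside 51.2% of all measured genes. In this list 3 were at least 2-fold higher, beside 2.70% of all measured genes. None was 2-fold lower, beside 0.700%, and the median was 0.78. The 3 were Clec1b (from 681 to 1515, log2 ratio 1.15), Sirpa (1.15, with 0.03 on the lowest of its 3 probe sets) and Hmox1, which was at 0.91 with a pseudocount. Adgre1, which encodes F4/80, was at 0.89, the CSF1 receptor gene Csf1r at 0.79, Folr2 at 0.77 and Clec4f, the lectin that in mice is made only by Kupffer cells, at 0.49 (1462 and 2048). The transcription factor genes were at 0.99 for Spi1, which encodes PU.1, 0.79 for Irf8, 0.63 for Id3, 0.16 for Maf and -0.31 for Nr1h3, and Spic was below the floor on both arrays. The measured probe sets of Maf ran from 0.05 to 0.93 and those of Csf1r from 0.58 to 1.16. The lectin gene Fcna was at -0.07. Of this list 18 of 19 genes with a probe set, and all 10 members, were above the floor in both pools, at log2 ratios from -0.31 to 1.62. Of 17 measured genes that resident macrophages share with recruited monocytes and macrophages, 10 were at least 2-fold higher. The share over all measured genes was 2.70%, and the median of this list was 1.07. The 10 were led by Gpnmb, a gene of lipid-loaded macrophages (149.7 and 627, log2 ratio 2.07), the lysozyme gene Lyz2 (1.86), Lgals3 (1.68) and Aif1 (1.45). Next came Fcer1g (1.37), a gene of the study's panels, Tyrobp (1.33), Cybb (1.21), Ctss (1.11) and Cd9 (1.07, or 0.98 with a pseudocount). Ccr2, the receptor of recruited monocytes, was at 1.02 (0.74 with a pseudocount).

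**Figure D4:**
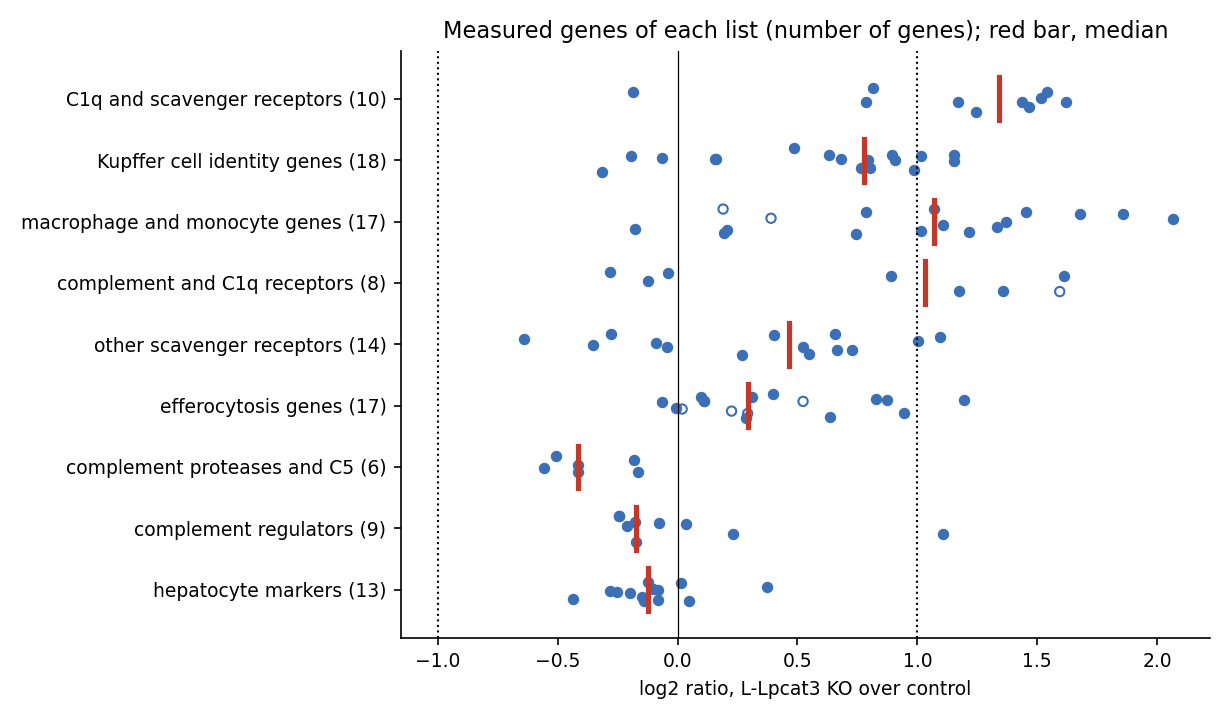
Log2 ratio, L-Lpcat3 KO to control (x axis) for each measured gene of 9 gene lists, with the number of genes in brackets, red bars at the list medians and dotted lines at 2-fold; open points have 1 array under the floor. The members have a median of 1.34, the Kupffer cell identity genes 0.78, the macrophage and monocyte genes 1.07, and the complement proteases and C5 -0.41.

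Markers of other cells of the liver and blood were read beside these results. Of all measured genes 51.2% had a log2 ratio above 0 and 2.70% were at least 2-fold higher. B cell and plasma cell markers were at least 2-fold higher in 5 of 5 measured genes, their summed signal going from 898 to 4537, with Pax5 below the floor on both arrays. Cd79a, Cd79b and Ms4a1 had the control side under the floor, and Ighm alone went from 518 to 2975. Both Jchain and Ighm, the B cell genes above the floor in each pool, belong to the study's panels, so their direction is not independent evidence. That Ighm reading is a log2 ratio of 2.52. Its 7 measured probe sets spanned 1.03 to 2.58, and averaging them gave 1.88. Of the adipose markers 3 of 3 were above a log2 ratio of 0 and 2 passed 2-fold (summed signal 1233 and 1974), Lep being below the floor on both arrays. Those past 2-fold, Adipoq and Retn, had the control side under the floor, and most of the sum came from Plin4 (1130 and 1441). Stellate cell and fibroblast markers were above 0 in 9 of 10 genes, 3 of them by 2-fold or more (18725 and 28909), and sinusoidal endothelial markers in 9 of 10, 2 of them by as much (9051 and 11473). With probe sets averaged, the fibroblast genes Col1a1 (0.77) and Col3a1 (0.93) and the endothelial gene Lyve1 (0.99) were under 2-fold. Acta2 (1.70) and Pecam1 (1.41), each with 1 measured probe set, were past 2-fold, and the Pecam1 control signal (96.8) was near the floor. Neutrophil markers were above 0 in 4 of 5 genes, 1 of them past 2-fold (553 and 788), with Cxcr2 and Camp below the floor on both arrays. The neutrophil gene past 2-fold, S100a8, had the control side under the floor. T cell and NK cell markers were above 0 in 3 of 3 genes and 0 passed 2-fold (138 and 363). Each had the control side under the floor. Without a floor 5 of 8 differed by 2-fold or more in either direction, and of these Ncr1 was lower (34.7 and 11.9). In this list Cd3d, Cd3g, Cd8a, Cd4 and Ncr1 were below the floor on both arrays. Red blood cell markers were above 0 in 1 of 2 genes, Slc4a1 (at least 0.92), and 0 passed 2-fold (2371 and 1680). The summed signal of the 13 hepatocyte markers was 343587 for control and 317974 for the L-Lpcat3 KO pool, and that of the 18 Kupffer cell identity genes 35642 and 42834. The part of cell composition in the ratios of the members was not tested. Lpcat3 itself, on its only probe set, read 5173 and 2198, a limited check of the deletion because no source used here places this probe set inside or outside the floxed part.

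**Figure D5:**
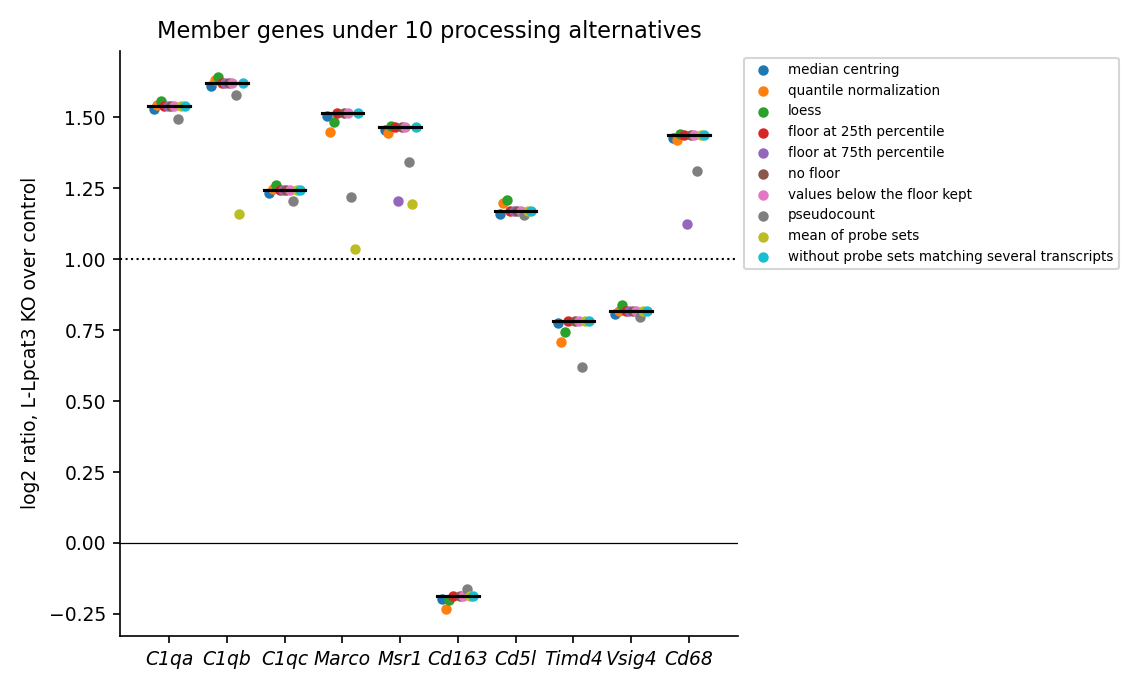
Log2 ratio, L-Lpcat3 KO to control (y axis) for each member gene under 10 processing alternatives (coloured points) and as reported (black bars); the dotted line marks 2-fold. C1qa, C1qb, C1qc, Msr1, Cd5l and Cd68 stay above 2-fold in all 10, as does Marco in the 9 that measured it, and Cd163 stays below 0 in the 9 that measured it, from -0.23 to -0.16.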

How the data were processed

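Total liver RNA of 5 mice per genotype was pooled and hybridised to 1 Affymetrix Mouse Genome 430 2.0 array for Lpcat3fl/fl and 1 for L-Lpcat3 KO mice. The authors made the deposited signal intensity values with MAS5 (version not given in the sources used here) and used GenespringGX for analysis; the values are on a linear scale with a mean of 500 on both arrays after trimming 2% at either end. Scaling of this kind takes most transcripts to be equal between arrays, and dim intensities are the noisiest. Detection calls were not used here.

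The 45101 probe sets comprised 34945 with 1 gene symbol, 932 with several, 9160 unnamed here and 64 controls; symbols were brought up to date through the RefSeq gene table (GRCm38.p6), in which 18032 of 18193 genes matched. The floor was the median of all values. Ratios were formed as log2 of L-Lpcat3 KO over control, and a gene was read on the probe set with the brightest mean log2 signal as deposited. With 1 pool per genotype no p-value is given. The members and the gene lists were chosen with earlier results of these data known. Named are all members, the neighbours of the C1q genes and Lpcat3. From the lists, genes past 2-fold, those of largest ratio and the brightest were eligible, and not all of these are named. The other genes named were chosen after their values were seen. Counting and scaling were tested on simulated data. Alternatives were, for scaling, loess, quantile normalization and median centring; for low values, the 25th or 75th percentile as floor, a pseudocount of 50, keeping dim values as deposited, and dropping the floor and its filter; for probe sets, their mean, or excluding the types _s_at and _x_at; and for calls, 1.5-fold and 3-fold. Python 3.11.15, numpy 2.4.6, pandas 2.3.3, statsmodels 0.14.6 and matplotlib 3.10.9 were used.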

Additional observations from a re-analysis of the deposited data

How the results depend on the processing

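No paired analysis was possible because each genotype has 1 array. Under the 10 alternatives of scaling, floor and probe set, 6 to 7 member genes were at least 2-fold higher. The median log2 ratio of the members ran from 1.16 to 1.35. The share of all measured genes at least 2-fold higher moved with the floor. It was 88 of 7452 with a floor at the 75th percentile, where 6 of 7 members passed. Without a floor it was 2230 of 18193, beside 7 of 10 members. Under the 8 alternatives of scaling and floor, 7 to 10 member probe sets passed. They were 7 of 9 with the floor at the 75th percentile and 10 of 16 without a floor. At a threshold of 3-fold, 1 member gene, beside 0.448% of all measured genes, and 2 member probe sets passed. With a floor at the 75th percentile Marco, Cd163 and Timd4 were below the floor on both arrays, leaving 7 members, and the ratio of Cd68 was 1.12. Averaging probe sets gave 1.16 for C1qb and 1.04 for Marco, and a pseudocount gave 1.22 for Marco. Under these alternatives no measured member changed the sign of its ratio. For the other 15 lists, genes past the threshold were counted in either direction at the 12 alternatives. Of these 180 counts, 128 stayed within 1.5 times the reported count and 52 did not. With a floor at the 75th percentile 1 complement or C1q receptor gene, 1 B cell gene and no adipose gene passed. Ratios of genes near the floor carry the least weight, and the spread between mice is unknown.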
